A study of Mus musculus with 6 samples.

Results

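The genes described here defend cells against reactive oxygen: Sod1, Sod2, Cat, Gpx1, Prdx1, Txnrd1, Gclm, Nqo1, Hmox1 and Nfe2l2. Their members were taken as the probe sets that the array's annotation assigns to 1 of these 10 genes and to no other gene. This gave 21 probe sets of 9 genes, out of 45037 probe sets and 18193 genes on the array. Prdx1, a peroxiredoxin, was left without a value because its 5 probe sets also carry a second gene symbol.

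Cells in all groups were LT-HSCs, long-term haematopoietic stem cells, which live in the marrow and sustain blood formation; they were sorted by the phenotype Lin-Sca1+CD150+CD48-. The dKO mice carried MxCre with floxed c-myc (Myc) and floxed N-myc (Mycn); the control mice carried both floxed genes without MxCre. All mice were 8 weeks old, on a mixed background, and had been given 2 daily doses of pI-pC, a synthetic double-stranded RNA, the last of them 3 days before the cells were taken. MxCre is driven by an interferon-responsive promoter that pI-pC switches on, in other tissues as well as in blood cells. There were 3 arrays per group, each with RNA from its own pool, amplified in 2 rounds. A dKO pool joined 3 mice and a control pool 2. The presence of MxCre and the pool size went with the group, so they cannot be told apart from the loss of Myc and Mycn. Values are log2 expression values from RMA, a method that corrects background, scales arrays to each other and summarises the probes of a set.

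Superoxide, which leaks from the respiratory chain and is made by NADPH oxidases, is turned into hydrogen peroxide by superoxide dismutases. Catalase, glutathione peroxidases and peroxiredoxins then remove the peroxide. The peroxidases and peroxiredoxins, but not catalase, do so at the cost of reduced glutathione or thioredoxin, which NADPH-dependent reductases restore. Many of these genes are induced by Nrf2 (encoded by Nfe2l2), a transcription factor that Keap1 marks for degradation until oxidants or electrophiles modify it. Nrf2 binds antioxidant response elements with small Maf partners, while Bach1 occupies the same elements as a repressor. Blood stem cells are known for low levels of reactive oxygen, and FoxO factors are known to maintain them there.

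The deleted genes were lower in dKO cells, though not at every probe set. Myc averaged 7.43 in dKO arrays and 10.36 in control arrays. The Mycn probe set 1417155_at averaged 3.46 in dKO arrays and 10.81 in control arrays, and 1425922_a_at 7.33 and 8.94. Mycn 1425923_at averaged 4.32 in dKO arrays and 4.40 in control arrays, with groups that overlapped. Array medians were 5.90 to 5.92 in dKO arrays and 5.96 to 5.97 in control arrays, so they did not overlap. Of 10 LT-HSC markers, 8 had a probe set of their own and 0 of these 8 had both group means as low as the negative control probe sets, which ran from 2.13 to 3.92. Their summed level was 12.22 to 12.63 in dKO arrays and 13.07 to 13.10 in control arrays (log2). In such samples, fewer cells of a type and less RNA per cell cannot be told apart. The Gapdh 3' minus 5' difference, which grows as RNA degrades, was 2.39 to 2.47 in dKO arrays and 2.12 to 2.36 in control arrays, so it moved with the groups, while that of beta-actin overlapped (0.196 to 0.214 in dKO arrays and 0.104 to 0.231 in control arrays). Its part in the results below was not tested.

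Of the 21 probe sets, 4 passed the test, and not in 1 direction. Gpx1 (1.44-fold), Txnrd1 (2.02-fold by 1 of 3 probe sets) and Hmox1 (1.94-fold) rose in dKO cells, and Cat fell (1.51-fold lower by 1 of 2 probe sets). Each of these 4 calls was lost in at least 5 of the 6 fits that left out 1 array. Neither Sod1, Sod2, Gclm, Nqo1 nor Nfe2l2 had a probe set past the threshold, a limma adjusted p of 0.05 over all probe sets. This made 3 probe sets higher, 1 lower and 17 not past the threshold, or 19% called, against 6.99% over the array, where 3.57% were higher and 3.41% lower. The values of the groups did not overlap at 13 of the 21 probe sets (61.9%), 8 of them higher and 5 lower in dKO cells, against 27.4% over the array. Probe sets of 1 gene share its transcripts, so these counts are not independent, and no test of the list as a whole was made. The members were also chosen with earlier results of these data known, so the array shares are no neutral comparison. The median log2 change was 0.24 among the members and -0.01 over the array. The median of the absolute log2 change was 0.48 among the members and 0.22 over the array.

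**Figure D1:**
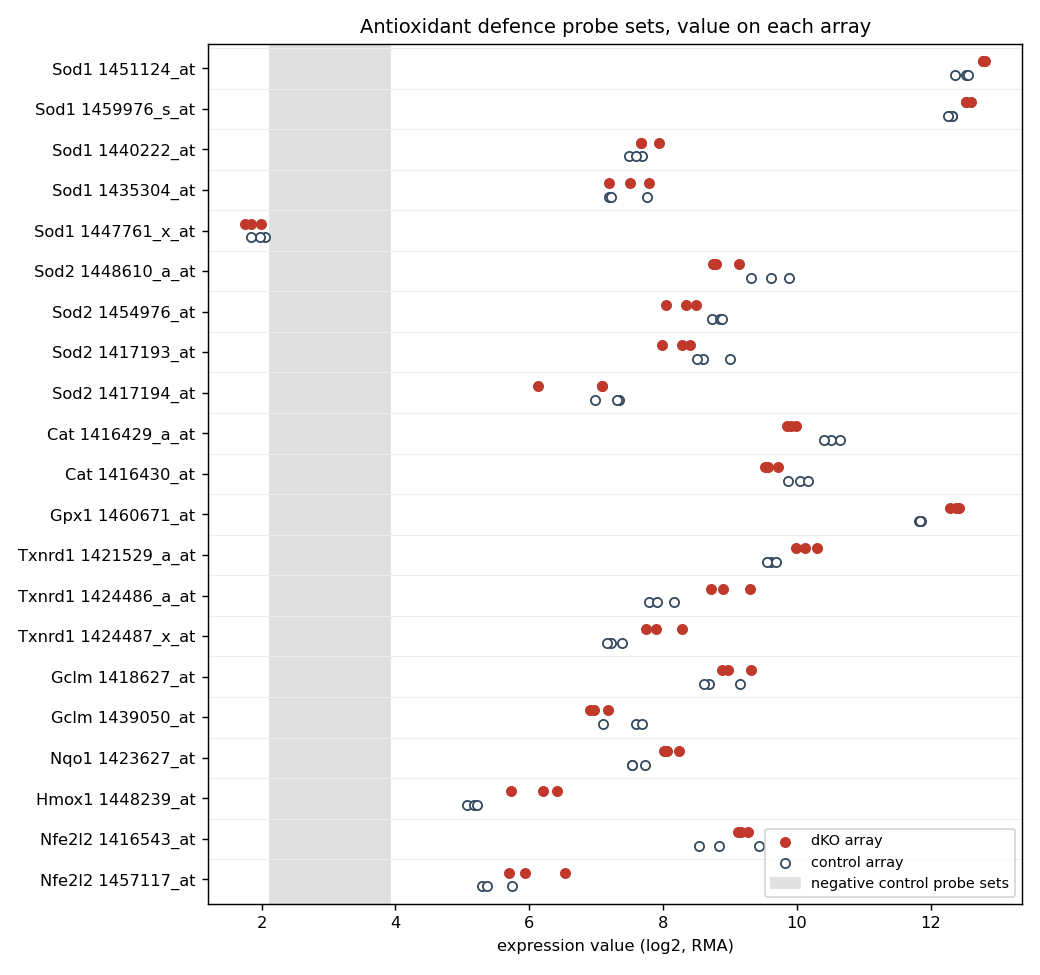
Value of every antioxidant defence probe set on each array (x axis, log2 RMA value; 1 row per probe set, filled points dKO arrays, open points control arrays). The grey band spans the negative control probe sets, 2.13 to 3.92, and Sod1 1447761_x_at lies under its lower edge while Cat, Gpx1, Txnrd1, Nqo1 and Hmox1 show no overlap between the groups.

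Promoter sequences are shown because Nrf2 and Myc act through short DNA motifs, TGACNNNGC for the core of the antioxidant response element and CACGTG for the E-box that Myc binds with Max. RefSeq windows of GRCm38.p6, from 250 bases before to 50 after a transcript start, were found for 9 of the 10 genes, as 11 windows. Those of the called members with a window, Txnrd1, Gpx1 and Cat, and that of Gclm follow, 5' to 3' on the strand of the gene, with matches to either motif in capitals.
Txnrd1, chr10:82858956-82859255, plus strand: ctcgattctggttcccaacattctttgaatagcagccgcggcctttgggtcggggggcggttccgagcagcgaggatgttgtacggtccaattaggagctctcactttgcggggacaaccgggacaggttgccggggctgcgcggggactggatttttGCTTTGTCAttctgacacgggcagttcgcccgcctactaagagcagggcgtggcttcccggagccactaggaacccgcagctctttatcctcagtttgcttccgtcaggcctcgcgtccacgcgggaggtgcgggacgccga
Gpx1, chr9:108338830-108339129, plus strand: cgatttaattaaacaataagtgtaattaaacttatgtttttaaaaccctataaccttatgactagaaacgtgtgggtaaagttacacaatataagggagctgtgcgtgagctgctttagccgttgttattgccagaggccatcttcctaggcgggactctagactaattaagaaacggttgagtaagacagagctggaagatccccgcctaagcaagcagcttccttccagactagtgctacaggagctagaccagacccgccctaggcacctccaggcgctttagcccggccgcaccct
Cat, chr2:103485104-103485403, minus strand: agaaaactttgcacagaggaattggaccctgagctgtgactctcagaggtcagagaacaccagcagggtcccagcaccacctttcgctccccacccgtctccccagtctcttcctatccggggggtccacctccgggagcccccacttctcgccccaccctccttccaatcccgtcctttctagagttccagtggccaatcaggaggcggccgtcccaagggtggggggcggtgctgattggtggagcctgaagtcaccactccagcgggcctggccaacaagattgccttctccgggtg
Gclm, chr3:122245307-122245606, plus strand: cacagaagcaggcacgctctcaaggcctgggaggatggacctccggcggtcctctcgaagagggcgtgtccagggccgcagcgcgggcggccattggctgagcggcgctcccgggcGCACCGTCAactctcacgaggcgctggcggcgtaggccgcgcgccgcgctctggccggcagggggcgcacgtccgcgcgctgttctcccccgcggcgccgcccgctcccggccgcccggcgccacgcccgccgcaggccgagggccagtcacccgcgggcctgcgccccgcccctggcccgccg
Both strands were searched, and the motifs overlap nowhere in these windows. The Txnrd1 match begins 92 bases before the start and the Gclm match 134 bases before it, both on the opposite strand. Single matches were also found in the windows of Sod1 (56 bases before the start), Prdx1 (133 bases) and Nfe2l2 (240 bases). Thus 5 of the 9 genes had a window with TGACNNNGC, against 14% of 27025 genes with a window. The other two Txnrd1 windows had none. No member window held CACGTG, which 8.09% of genes with a window did. The members include genes known to be induced by Nrf2, so the 14% is no neutral comparison for TGACNNNGC. Prdx1, among the 5 genes with TGACNNNGC, has no expression value. A match says only that these letters are there, and none that these letters are not in this window.

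Superoxide dismutases came first in the pathway. Sod1 encodes the copper and zinc enzyme of the cytosol and Sod2 the manganese enzyme of the mitochondrial matrix, and neither had a probe set past the threshold. The brightest Sod1 probe set, 1451124_at, read 12.78, 12.78 and 12.82 in dKO arrays, against 12.53, 12.56 and 12.36 in control arrays. The 3 dKO values all lay above the control values, by a small margin. Its log2 change was 0.31 ± 0.13 (SE, limma adjusted p = 0.217). Sod1 1459976_s_at had a similar difference of 0.26 ± 0.12 without overlap (limma adjusted p = 0.275). The dimmer Sod1 probe sets 1440222_at and 1435304_at differed by 0.17 and 0.11 with groups that overlapped, and 1447761_x_at read 1.75 to 1.99 in dKO arrays and 1.85 to 2.04 in control arrays, no more than background. Under a trended robust prior 1451124_at and 1459976_s_at passed the threshold (limma adjusted p = 0.0162 and 0.0125).

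All 4 Sod2 probe sets had a lower mean in dKO cells, and none passed the threshold. By 1448610_a_at, Sod2 read 8.74, 9.14 and 8.79 in dKO arrays, against 9.88, 9.61 and 9.31 in control arrays. No dKO value reached the lowest control value, and the log2 change was -0.71 ± 0.19 (SE, limma adjusted p = 0.0793). The groups did not overlap at 1454976_at (-0.53 ± 0.16, limma adjusted p = 0.102) or at 1417193_at (-0.48 ± 0.19, limma adjusted p = 0.193) either. At 1417194_at they did, with a single low dKO value of 6.13 beside 7.08 and 7.09 (log2 change -0.44 ± 0.28, limma adjusted p = 0.430). The 95% intervals of the Sod2 changes ran from -1.16 to -0.25 at 1448610_a_at and from -0.90 to -0.16 at 1454976_at. With quantile normalization 1448610_a_at passed the threshold (limma adjusted p = 0.0499), and likewise with a trended robust prior (0.0440).

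Of the peroxide-removing enzymes, the peroxisomal catalase was lower and the cytosolic glutathione peroxidase higher in dKO cells. Cat 1416429_a_at read 9.99, 9.92 and 9.85 in dKO arrays, against 10.51, 10.40 and 10.64 in control arrays. The dKO values lay close together, all under the lowest control value. The log2 change was -0.60 ± 0.13 (SE), a 1.51-fold decrease (limma adjusted p = 0.0417). The other Cat probe set, 1416430_at, read 9.73, 9.57 and 9.52 in dKO arrays, against 9.87, 10.04 and 10.17 in control arrays. It went the same way without overlap and did not pass the threshold (log2 change -0.43 ± 0.14, limma adjusted p = 0.135). The Cat call was lost whichever of the 6 arrays was left out (limma adjusted p = 0.0775 to 0.122) and with each array centred on its median (0.0569).

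Gpx1, a selenoprotein that reduces hydrogen peroxide with glutathione, had 1 probe set, 1460671_at. It read 12.30, 12.38 and 12.42 in dKO arrays, against 11.85, 11.83 and 11.84 in control arrays. Each dKO value exceeded each control value by at least 0.44, more than the whole spread within either group. The log2 change was 0.53 ± 0.12 (SE), or 1.44-fold (limma adjusted p = 0.0481). Its call was lost whichever of the 6 arrays was left out, with limma adjusted p values of 0.1 to 0.135.

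The thioredoxin reductase Txnrd1, a cytosolic selenoprotein that keeps thioredoxin reduced, was higher in dKO cells by all 3 probe sets. By 1424486_a_at it read 8.72, 9.30 and 8.90 in dKO arrays, against 7.80, 8.16 and 7.91 in control arrays. The groups did not overlap, and the log2 change was 1.01 ± 0.19 (SE), or 2.02-fold (limma adjusted p = 0.0258). The brightest probe set, 1421529_a_at, read 9.99, 10.30 and 10.11 in dKO arrays, against 9.61, 9.55 and 9.69 in control arrays. It differed by 0.52 ± 0.14 without passing the threshold (limma adjusted p = 0.0743), and 1424487_x_at by 0.72 ± 0.18 (limma adjusted p = 0.0579). The probe set 1424487_x_at passed with median centring (0.0458) and quantile normalization (0.0446), and 1421529_a_at with the trended robust prior (0.0227). The suffix x marks a set whose probes can also bind other transcripts. On all 3 probe sets the second dKO array was the highest of the 6. Without 1 array the call of 1424486_a_at held only when dKO replicate 1 was left out (limma adjusted p = 0.0454) and was lost otherwise (0.0527 to 0.0773).

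Gclm, the modifier subunit of the ligase that makes the first and limiting step of glutathione synthesis, did not pass the threshold. Its probe sets differed in sign: 1418627_at had a log2 difference of 0.24 ± 0.20 (SE, limma adjusted p = 0.568) and 1439050_at one of -0.45 ± 0.19 (limma adjusted p = 0.233). The groups overlapped at both. By 1418627_at, Gclm read 8.88, 9.32 and 8.97 in dKO arrays, against 8.68, 9.16 and 8.61 in control arrays. The 95% interval of that difference, -0.23 to 0.71, holds changes of either sign.

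Hmox1, haem oxygenase 1, which breaks haem down to biliverdin, iron and carbon monoxide and is induced by Nrf2 once Bach1 leaves, rose in dKO cells. Its probe set 1448239_at read 6.42, 6.21 and 5.72 in dKO arrays, against 5.07, 5.18 and 5.22 in control arrays. The third dKO pool stood closest to the controls, and no values overlapped. The log2 change was 0.96 ± 0.20 (SE), or 1.94-fold (limma adjusted p = 0.0324). The control values lay above the negative control range and under the lowest array median, 5.90, which is low on this scale. The call was lost without each array but dKO replicate 3, with limma adjusted p values up to 0.101; without that replicate the log2 change was 1.16 (0.0254).

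Hmox1 is also abundant in macrophages, so the macrophage markers are set beside it. Of 10 such genes, C1qb and Fcgr1 rose in dKO cells and 8 did not pass the threshold (20% called, against 8.05% over all genes). Their summed level was 8.83 to 9.11 in dKO arrays and 8.40 to 8.67 in control arrays, without overlap. The groups did not overlap at 5 of the 10 genes, 4 of them higher and 1 lower in dKO cells, against 30% over all genes. The median log2 change of the list was 0.30. None of the 10 had both group means inside the negative control range. The Lin- gate is meant to leave macrophages out. The part of such cells in the Hmox1 difference was not tested.

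Nqo1, the quinone reductase often read as an indicator of Nrf2 activity, had values of 8.02, 8.06 and 8.23 in dKO arrays, against 7.73, 7.54 and 7.53 in control arrays. The dKO values all lay higher, yet the log2 difference of 0.50 ± 0.14 (SE) did not pass the threshold (limma adjusted p = 0.0788; 95% interval 0.18 to 0.83). Nfe2l2 itself had 9.27, 9.16 and 9.12 in dKO arrays, against 8.54, 9.44 and 8.83 in control arrays, by 1416543_at. The second control pool was the highest of the 6, and the difference of 0.25 ± 0.23 did not pass (limma adjusted p = 0.611). The dimmer Nfe2l2 probe set, 1457117_at, differed by 0.59 ± 0.24 with overlapping groups (limma adjusted p = 0.218). For single members, an exact permutation test, two-sided, over 20 splits of the arrays cannot go below 0.1, the value reached at each of the 13 probe sets without overlap.

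**Figure D2:**
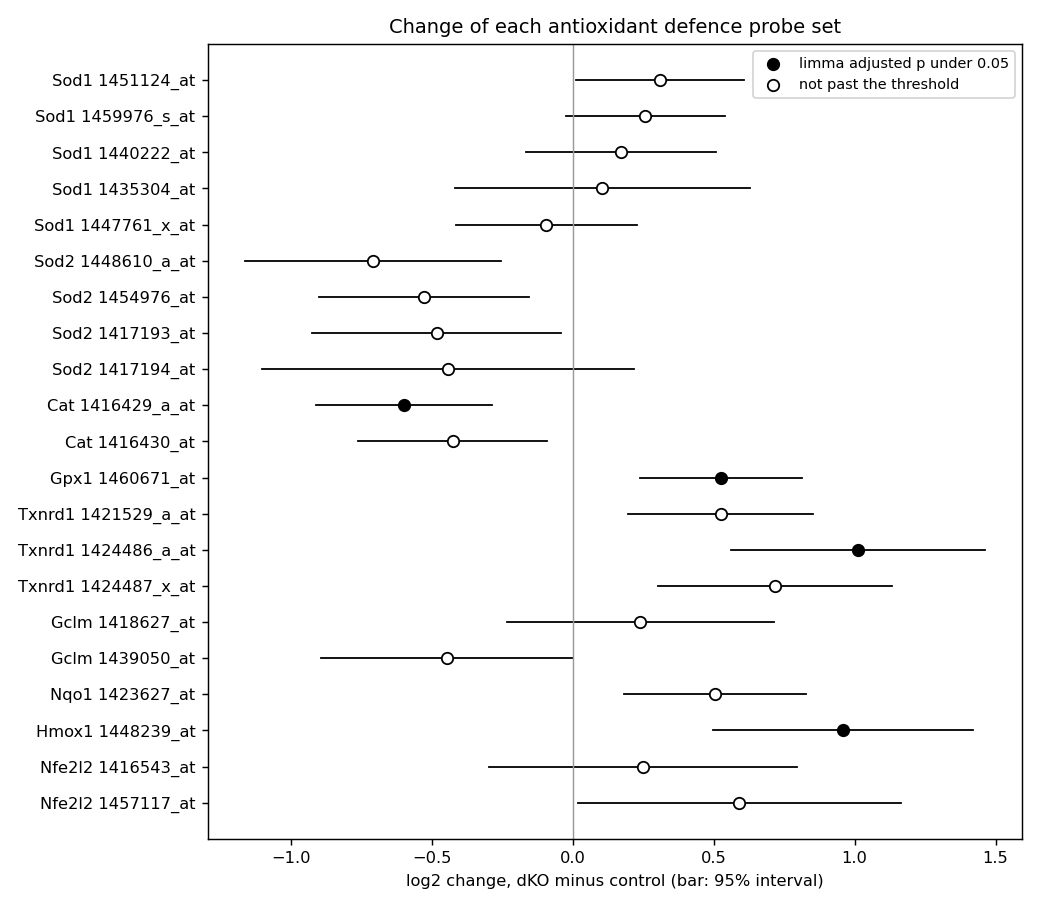
Log2 change of each antioxidant defence probe set, dKO minus control (x axis; point, limma estimate; bar, 95% interval; filled, limma adjusted p under 0.05; 3 arrays per group). Filled points stand at -0.60 for Cat, 0.53 for Gpx1, 1.01 for Txnrd1 and 0.96 for Hmox1, while the 4 Sod2 points lie left of 0 and the Gclm points on both sides.

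The wider redox system was then described with 8 lists of 98 genes, including the 10 members, of which 91 had a probe set of their own. By the brightest probe set of each gene, 11 rose, 11 fell and 69 did not pass the threshold. Over all 18193 genes, 4.49% were higher and 3.56% lower. The 82 measured genes that are no members had 9 higher and 10 lower. The median log2 change of the 91 genes was 0.11, against 0.01 over all genes, and that of the absolute change 0.42 against 0.21. Leaving out 1 array cut the counts to between 4 (without dKO replicate 1 or 2) and 6 (without control replicate 1 or dKO replicate 3) higher, and to between 2 (without control replicate 2 or 3) and 5 (without control replicate 1 or dKO replicate 3) lower. With the mean over all probe sets of a gene, 15 rose and 15 fell.

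In superoxide dismutation, 0 of 4 genes passed the threshold. Besides Sod1 and Sod2, the copper chaperone Ccs differed by -0.13 ± 0.19 (SE, log2) and the extracellular Sod3 by -0.02 ± 0.15, with limma adjusted p values of 0.776 and 0.958. In peroxide removal, 2 of 10 genes rose and 1 fell. Srxn1, sulfiredoxin, which reactivates overoxidised peroxiredoxins and is induced by Nrf2, read 8.51, 8.89 and 8.69 in dKO arrays, against 7.86, 7.72 and 7.83 in control arrays. The rise was 1.86-fold, a log2 change of 0.89 ± 0.15 at a limma adjusted p of 0.0169, and 3 of its 4 probe sets passed the threshold in that direction. Gpx4, which reduces lipid peroxides, differed by 0.45 ± 0.125 at its brightest probe set (limma adjusted p = 0.0846), while the dimmer 1451695_a_at was higher by 0.84 ± 0.16 (limma adjusted p = 0.0238). The peroxiredoxins Prdx2 and Prdx4 had lower dKO means, by differences of -0.47 ± 0.16 and -0.57 ± 0.20 that did not pass (limma adjusted p = 0.147 and 0.152). The Srxn1 call was lost without any array but control replicate 1 or dKO replicate 1, with a limma adjusted p of up to 0.0611.

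Cat and Prdx2 are abundant in red cell precursors, so the erythroid markers are given beside them. Of 8 measured erythroid genes, Klf1 fell and 7 did not pass the threshold (12.5% called, against 8.05% over all genes). Their summed level was 8.20 to 8.77 in dKO arrays and 9.14 to 9.27 in control arrays (log2), lower in dKO cells without overlap. The groups did not overlap at 2 of the 8 genes, 1 of them higher and 1 lower in dKO cells, against 30% over all genes. The median log2 change of the 8 erythroid genes was -0.53, and 2 of them had both group means inside the negative control range. The Lin- gate is meant to leave such cells out. The part of such cells in the Cat difference was not tested.

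In thioredoxin and thiol repair, 3 of 14 genes fell and 0 rose by their brightest probe sets. Txnrd3, the paralog of Txnrd1 known from testis, read 4.61, 4.54 and 6.01 in dKO arrays, against 7.26, 6.52 and 7.25 in control arrays. Its log2 change was -1.96 ± 0.42 (SE, limma adjusted p = 0.0371), opposite in sign to that of Txnrd1. A second Txnrd3 probe set, 1423869_s_at, was also lower (-0.94 ± 0.14), and the remaining one lay in the negative control range. By the mean of the 3 the log2 change was -1.02 (limma adjusted p = 0.0175). The monothiol glutaredoxin Glrx3 fell by 0.92 ± 0.19 and the methionine sulfoxide reductase Msrb3 by 0.95 ± 0.22 (limma adjusted p = 0.0349 and 0.0453), while Msra had a difference of 0.60 ± 0.17 that did not pass (0.0805). The calls of Glrx3 and Msrb3 were lost whichever array was left out (limma adjusted p reaching 0.109 and 0.127), as was the call of Txnrd3 without each array but dKO replicate 3 (up to 0.116). The Msrb3 call also ended with arrays centred on the median (0.0541), with quantile normalization (0.0634) and with the mean of its probe sets (0.0652).

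In the glutathione list 4 of 19 genes fell and 0 rose. The 4 are transferases, and Gclc, Gclm and Gss, the genes of glutathione synthesis, did not pass the threshold. Gstm1, a mu-class transferase that joins glutathione to electrophiles, read 7.19, 7.95 and 7.78 in dKO arrays, against 9.82, 9.75 and 9.62 in control arrays. Every dKO value was far under the controls, 4.25-fold lower, with a log2 change of -2.09 ± 0.21 (SE) and a limma adjusted p of 0.00398, and the call held whichever array was left out. Of its 4 probe sets, 3 were called lower and 1 lay in the negative control range, and by the mean of all 4 the log2 change was -1.31 (limma adjusted p = 0.00139). Mu-class genes are close copies of each other, and the Gstm1 probe set carries the suffix x, so Gstm1 and Gstm5 signals may not be fully separate. Gstm5 fell by 1.26 ± 0.25, the omega-class Gsto1 by 1.24 ± 0.26 and the microsomal Mgst1 by 0.78 ± 0.16, with limma adjusted p values of 0.0286, 0.0349 and 0.031. Gclc, the catalytic partner of Gclm, differed by -0.37 ± 0.14 (limma adjusted p = 0.174), and passed by the mean of its probe sets (0.0474). The Gstm5 call was lost unless the array left out was control replicate 1 or dKO replicate 3 (limma adjusted p up to 0.0882). The calls of Gsto1 and Mgst1 each held without 1 array alone, control replicate 1 and dKO replicate 2, with values up to 0.107 and 0.0979 otherwise.

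Nrf2 and its regulators stood near the background, with 1 of 12 genes higher and 0 lower. The gene that rose was Maff, a small Maf protein that can pair with Nrf2. It read 8.44, 7.77 and 8.59 in dKO arrays, against 6.57, 6.97 and 6.87 in control arrays, 2.75-fold higher, with a log2 change of 1.46 ± 0.24 (SE) and a limma adjusted p of 0.0162. Maff lost its call without control replicate 1, dKO replicate 1 or dKO replicate 3, with limma adjusted p values up to 0.0622. Keap1 differed by 0.31 ± 0.19 (limma adjusted p = 0.416) and Bach1 by -0.003 ± 0.16 (limma adjusted p = 0.994; 95% interval -0.38 to 0.38). Bach2, Nfe2 and Mafg had differences of -0.74, 0.25 and 0.30 that did not pass (limma adjusted p = 0.245, 0.287 and 0.295). A dimmer Bach2 probe set, 1437667_a_at, was lower past the threshold, with a log2 change of -0.91 ± 0.14 (limma adjusted p = 0.0142).

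In the list of Nrf2-induced detoxification, haem breakdown and NADPH supply, 4 of 17 genes rose and 0 fell. This count depends on how the lists were split. Gclc, Gclm and the glutathione transferases stood in the glutathione list, where 4 of 19 genes fell, among them Gstm1, and 0 rose. Srxn1, also induced by Nrf2, stood in the peroxide list and rose there (log2 change 0.89 ± 0.15). Txnrd1, higher past the threshold by 1 of its 3 probe sets, stood in the thioredoxin list. The genes of the detoxification list that rose were Hmox1, Abcc1, Taldo1 and Blvra. Abcc1, which exports glutathione conjugates, read 10.80, 10.68 and 10.87 in dKO arrays, against 9.47, 9.50 and 9.13 in control arrays. The rise was 2.68-fold, a log2 change of 1.42 ± 0.15 (SE) at a limma adjusted p of 0.0049; both of its probe sets passed, and the call was kept whichever array was left out. Taldo1, transaldolase of the pentose phosphate pathway, rose by 0.83 ± 0.15 and Blvra, the biliverdin reductase that acts after haem oxygenase, by 0.67 ± 0.14 (limma adjusted p = 0.0205 and 0.0341). The flavin-dependent reductase Blvrb had a lower dKO mean, with a difference of -0.51 ± 0.14 that did not pass (limma adjusted p = 0.0796). The median log2 change of the list was 0.17. The Taldo1 call was lost without each array but control replicate 1, and the Blvra call whichever array was left out (limma adjusted p up to 0.0703 and 0.105).

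The NADPH oxidase, the enzyme complex that makes superoxide in phagocytes, was higher in several subunits. Of 6 measured oxidant producers, Ncf1, Cyba, Rac2 and Ncf4 rose and 0 fell. Ncf1, the cytosolic organiser subunit, read 9.74, 9.01 and 9.31 in dKO arrays, against 6.17, 7.01 and 7.40 in control arrays. The rise was 5.62-fold, a log2 change of 2.49 ± 0.34 (SE) at a limma adjusted p of 0.00893, and all 3 probe sets passed in that direction. The membrane subunit Cyba rose by 1.09 ± 0.16, the GTPase Rac2 by 0.95 ± 0.15 and the cytosolic Ncf4 by 0.88 ± 0.16, with limma adjusted p values of 0.0119, 0.0147 and 0.0218. The catalytic subunit Cybb had 4.48, 6.35 and 5.28 in dKO arrays, against 3.58, 7.17 and 4.92 in control arrays, and replicate 2 was the highest within each group. Neutrophils also make this complex. The granulocyte markers had 0 of 9 genes past the threshold by limma. At an unadjusted limma p under 0.05 there were 2, Camp and Ngp, both lower in dKO cells. The median log2 change of the granulocyte list was -0.59. Its summed level was 8.52 to 10.23 in dKO arrays and 9.81 to 11.35 in control arrays. The summed macrophage level was higher in dKO arrays, as given above, and the gate is meant to leave both cell types out. Their part in the oxidase difference was not tested. Rac2 lost its call with the mean of its probe sets (limma adjusted p = 0.0632) and without dKO replicate 1 or 2 (up to 0.0564), and Ncf4 held it only without dKO replicate 3 (up to 0.0750 otherwise).

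Of 9 regulators known to restrain oxidants in stem cells, Sesn1, Foxo3 and Sesn3 fell and 0 rose by their brightest probe sets. The median change of the list was -0.80. The sestrin Sesn2 went the other way: its brightest probe set had a log2 difference of 0.66 ± 0.20 (SE) without overlap that did not pass (limma adjusted p = 0.101), and its dimmer probe set, 1425139_at, was higher past the threshold by 1.74 ± 0.24 (limma adjusted p = 0.00927). The sestrin Sesn1, a stress-induced regulator of metabolism, read 8.72, 8.79 and 8.75 in dKO arrays, against 9.80, 9.72 and 9.88 in control arrays. The fall was 2.07-fold, with a log2 change of -1.05 ± 0.12 (SE) and a limma adjusted p of 0.006; 3 of its 4 probe sets were called, and the call was kept whichever array was left out. The transcription factor Foxo3, which is known to induce Sod2, Cat and Sesn3, fell by 0.71 ± 0.13 and Sesn3 by 0.83 ± 0.16 (limma adjusted p = 0.0211 and 0.0269). Foxo1 had a difference of -1.16 ± 0.28 that did not pass (limma adjusted p = 0.0522), and its other probe sets differed by -0.48 to -0.10; it passed with quantile normalization (0.0410), the filter (0.0444), the trended robust prior (0.0331) and array weights (0.0480), and without dKO replicate 2 (0.0348). All 3 Foxo3 probe sets were called lower, and 1 of 2 for Sesn3. By their brightest probe sets, Foxo3 lost its call whichever array was left out (limma adjusted p up to 0.0721). Sesn3 lost its call without each array but control replicate 1 (up to 0.0891).

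**Figure D3:**
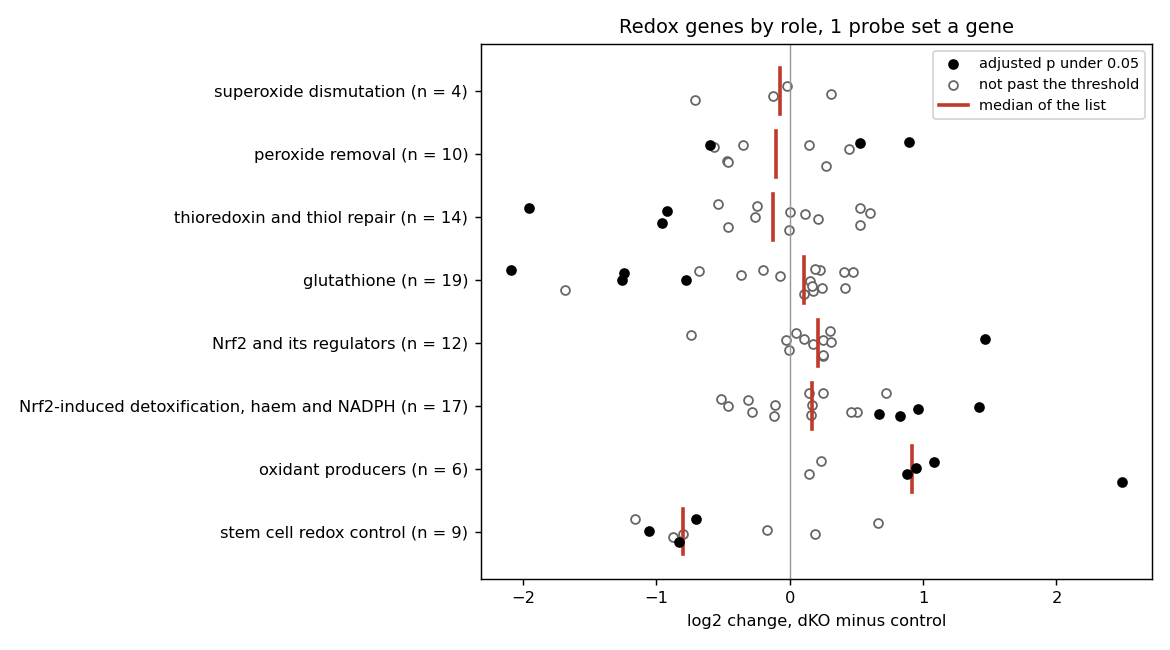
Log2 change of 91 redox genes by role, dKO minus control (x axis), 1 probe set per gene with vertical scatter for legibility. Filled points passed a limma adjusted p of 0.05 and the bar is the list median, which runs from -0.80 for stem cell redox control to 0.92 for oxidant producers.

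Markers of other cell types were checked as lists. The Lin- gate is meant to leave out cells with markers of mature lineages, and the CD48- gate most other leukocytes. Megakaryocyte and platelet markers had 3 of 7 genes higher and 1 lower (57.1% called, against 8.05% over all genes). Their summed level was 12.78 to 13.46 in dKO arrays and 11.64 to 11.85 in control arrays. Ppbp, Pf4 and Itga2b rose by 5.67, 1.11 and 1.16 on the log2 scale, and Vwf fell by 1.04. The groups did not overlap at 6 of the 7 genes, 4 of them higher and 2 lower in dKO cells, against 30% over all genes. In this list 1 gene had both group means inside the negative control range. T and NK cell markers had 0 of 8 and B cell markers 0 of 6 past the threshold by limma; at an unadjusted p under 0.05 the counts were also 0 and 0. The summed T and NK level was 8.13 to 8.56 in dKO arrays and 8.10 to 8.24 in control arrays, and the B cell level 8.35 to 9.21 in dKO arrays and 8.50 to 9.39 in control arrays. Of the LT-HSC markers, Hlf, Kit and Tek fell and 5 did not pass (37.5% called, against 8.05% over all genes). Among those 5, Slamf1 and Mecom had log2 differences of 0.08 and -0.04, and Procr, Fgd5 and Ctnnal1 of -0.36, -0.45 and -1.27. The groups did not overlap at 5 of the 8 LT-HSC genes, all lower in dKO cells, against 30% over all genes. The part of these shifts in the antioxidant results was not tested.

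**Figure D4:**
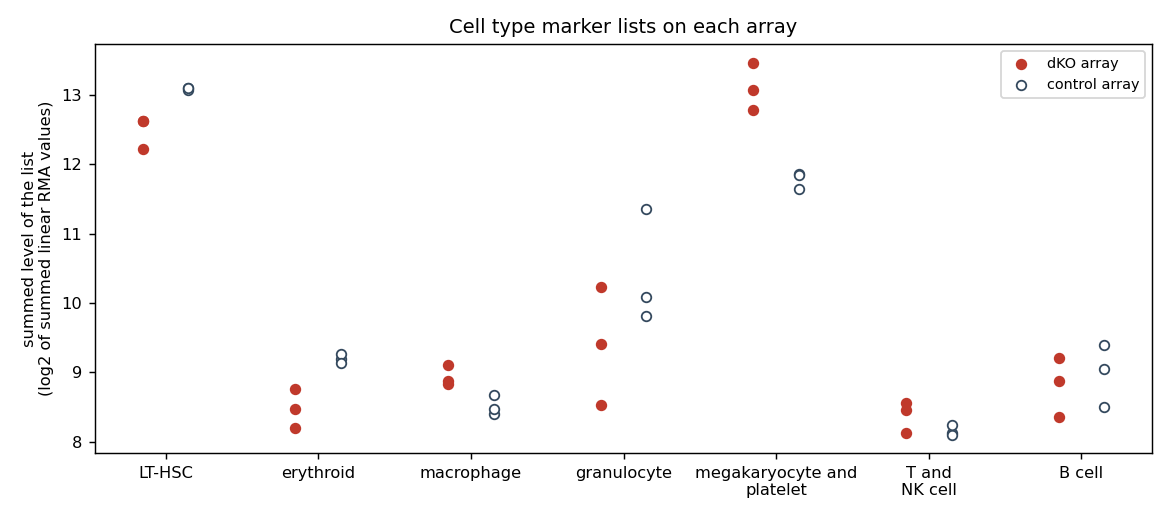
Summed level of each marker list on each array (y axis, log2 of the summed linear RMA values; filled points dKO arrays, open points control arrays). The groups do not overlap for the LT-HSC, erythroid, macrophage and megakaryocyte lists, and they overlap for granulocyte, T and NK and B cell lists.

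**Figure D5:**
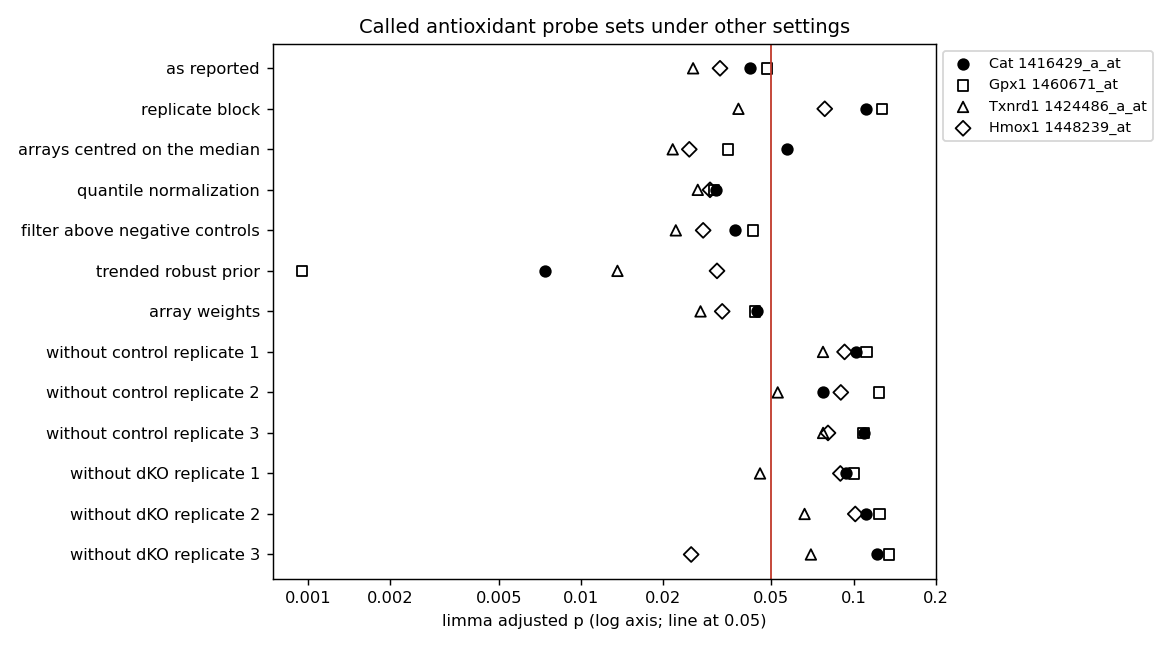
Limma adjusted p of the 4 called antioxidant probe sets (x axis, log scale, line at 0.05) as reported and under 12 other settings (rows). With 1 array left out, the points lie right of the line except for Txnrd1 without dKO replicate 1 (0.0454) and Hmox1 without dKO replicate 3 (0.0254).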

How the data were processed

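The deposited log2 values are RMA expression values, per the submitters' processing notes, which name no version; the log2 scale was read from the values. Groups and replicate numbers came from the sample titles. The label of control replicate 2 spells 1 floxed gene M-Myc, and it was kept as a control by its title. All value columns mapped to a sample. Each of 45037 probe sets, 64 array controls left out, was fitted with limma 3.58.1 in R 4.3.3 (lmFit and eBayes, 4 residual and 3.19 prior degrees of freedom), dKO minus control, with p-values adjusted by Benjamini-Hochberg over all probe sets at 0.05. The number of arrays limits the precision, and nothing beyond the pools separates replicates. The fit was tested on simulated data.

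Probe sets of several genes were not named. In lists, a gene was represented by its brightest probe set on average over the 6 arrays. Members and lists were chosen with earlier results of these data known. Named genes were every member, the other 4 genes of smallest p in each list, Gclc, Keap1 and Bach1; dimmer probe sets, Sesn2 and single markers were added after their values were seen. Negative controls are the 3 TrpnX probe sets. Alternatives were a replicate block, median centring, quantile normalization, a filter, another prior, array weights, left-out arrays and the mean of a gene's probe sets. Motifs were searched in RefSeq promoter windows.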

Additional observations from a re-analysis of the deposited data

How the results depend on the processing

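None of the 4 member calls held under every setting, and no member change that passed the threshold in any setting run was of opposite sign to the reported one. The antioxidant counts, 3 probe sets higher and 1 lower, became 1 and 0 with the replicate block, 4 and 0 with median centring, 4 and 2 with quantile normalization and 6 and 2 with a trended robust prior. Leaving out each array in turn left 0 to 1 higher and 0 lower. Over the array, 1608 were higher and 1538 lower, against 814 and 716 with the replicate block, and 708 to 893 and 630 to 812 with 1 array left out. Of the redox genes, 5 rose and 6 fell with the replicate block, and 4 to 6 rose and 2 to 5 fell with 1 array left out; smaller groups and fewer residual degrees of freedom come with these fits. Deviations of same-numbered arrays correlated at -0.02, 0.00 and 0.01 over all probe sets, against -0.05 to 0.05 for arrays of unlike number. This showed no array-wide pairing by number. Such a correlation over the whole array cannot exclude pairing that touches fewer genes. Under the block Txnrd1 1424486_a_at kept its call, and Cat, Gpx1 and Hmox1 had limma adjusted p values of 0.111, 0.127 and 0.0784. A filter above the negative controls and array weights left the member counts at 3 and 1.
Signal over background limits Sod1 1447761_x_at, which lies under the negative control probe sets, and Hmox1, whose control values are low. The filter removed that Sod1 probe set, so it has no value there.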
